A study of Mus musculus with 8 samples.

Results

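The miR-130 and miR-301 genes of the mouse, Mir130a, Mir130b, Mir301 (the gene of miR-301a) and Mir301b, were examined in small RNA libraries of spleen B cells. They were chosen by name, through their RefSeq coordinates, on the condition that they had counts. All 4 had counts, among 2202 miRNA features in the deposited tables, 560 of which had a count in any library. A count in any library is the only measured value in that rule, although earlier results of these data were known when the family was picked. RNA came either from whole cells (input) or from the immunoprecipitate (IP) of AGO2, an Argonaute protein that loads miRNAs and holds them on their targets. All mice were Ago2HA/HA, so both copies of Ago2 encode an HA epitope that an anti-HA antibody precipitates, and the labels report that cells without the epitope gave no RNA to make a library from. B cells were purified untouched, by removal of CD43-bearing cells, and were taken resting or after activation in culture, which the labels call proliferating. This gave 4 groups of 2 libraries: resting input, resting IP, proliferating input and proliferating IP. The labels give neither the age of the animals nor the activating agent, nor do they tie a library to an animal, and each p-value therefore reflects spread among these libraries that may be only technical.

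A miRNA finds its targets mainly through its seed, bases 2 to 8 from the 5′ end, so that miRNAs of one seed can bind the same sites. The miR-130 and miR-301 family is a conserved seed family, known for repressing PPARG in fat and vascular cells and components of TGF-beta signalling. Its miR-301a is known to favour NF-kappaB activity in human tumour cells, and miR-130a is known from haematopoietic progenitors, megakaryocytes and endothelium. The mature 3p arms found in RefSeq (GRCm38.p6) are shown because the shared seed, in capitals, is what makes these genes a family.
mmu-miR-130a-3p: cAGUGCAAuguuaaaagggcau
mmu-miR-130b-3p: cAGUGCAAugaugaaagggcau
mmu-miR-301a-3p: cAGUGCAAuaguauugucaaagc
These arms lie at chr2:84741116-84741137, chr16:17124071-17124092 (both minus strand) and chr11:87113054-87113076 (plus strand). The 3p arms of miR-130a and miR-130b differ at 2 of 22 bases, U11A and A13G, counted from 1 at the 5′ end with the base of miR-130a first. The miR-301a arm is identical to that of miR-130b over the first 9 bases. RefSeq gave 3p arms for 3 of the 4 genes, without mmu-miR-301b-3p. The hairpin of Mir301b is therefore shown whole, with the 7 letters of the family seed in capitals at its bases 56 to 62.
Mir301b hairpin: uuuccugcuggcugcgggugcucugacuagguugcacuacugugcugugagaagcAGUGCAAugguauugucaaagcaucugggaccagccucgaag
The 5p arms of Mir301 and Mir301b are shown because they have a common seed of their own, in capitals, which is not that of the 3p arms.
mmu-miR-301a-5p: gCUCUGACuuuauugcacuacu
mmu-miR-301b-5p: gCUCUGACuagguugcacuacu
They differ at 3 of 22 bases, U10A, U11G and A12G, counted in the same way with the base of miR-301a first. Each feature counts both arms of its hairpin together, so no value below tells the arms apart. Reads too short to hold a base that differs could match more than one of these genes, and the sources used here do not give how such reads were counted.

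The 4 genes lie at 3 places in the genome (mm10). Mir130b (chr16:17124061-17124142) and Mir301b (chr16:17124400-17124496) lie on the minus strand with 257 bases between them, inside the span of the protein-coding gene 2610318N02Rik. Mir301 (chr11:87113004-87113089, plus strand) lies inside the span of Ska2, which encodes a protein of the spindle and kinetochore complex that acts in chromosome segregation. Mir130a (chr2:84741115-84741178, minus strand) overlaps no other RefSeq gene. Gene spans do not separate exons from introns. No other counted feature overlaps any of the 4 on either strand. Of 1738 mature arms searched, 7 had the bases AGUGCAA at positions 2 to 8. They come from 7 genes, Mir130a, Mir130b, Mir301 and 4 others: Mir130c, Mir721, Mir6341 and Mir6389. These 4 had 0 counts in every library. Among the genes found with this seed on an arm, only members thus had counts, and these take both arms together. The search did not cover every chromosome.

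Libraries held 213418 to 386598 counts for input and 788869 to 1681148 for IP. Levels are counts per 1e6 counts (CPM) with TMM scaling factors, not divided by length, since mature miRNAs are nearly equal in length. Features with enough counts in at least 2 libraries were tested, 219 in all, and 3 of the 4 genes were among them, while Mir130a had too few counts. The listed lymphocyte markers Mir150, Mir155, Mir146 and Mir342 together held 29.8% to 46.1% of the counts of a library. Of 23 listed markers of other cell types, 22 could be assigned to a feature. Together they held 1.33% to 3.21% of counts in the resting libraries, most of it the myeloid Mir223, and 0.213% to 0.513% in the proliferating ones. The neural Mir124a-1, Mir124a-2, Mir124a-3 and Mir9-1 and the stromal Mir199a-2 were at 0 in all libraries. Other markers of these lists had counts. Neural Mir9-2 had 1 count in the proliferating inputs and Mir9-3 had 3 in the proliferating IPs. The stromal markers together held 4.7e-04% to 0.0081% of a library, and among them Mir10b had 120 and 46 counts in the resting IPs.

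The family was a small part of the B cell miRNA pool, and was a larger part of it in proliferating than in resting cells. The 4 genes together took 0.190% ± 0.0264 of the counts of the resting input (mean ± SD, n = 2 here and below) and 0.461% ± 0.0439 of the proliferating input. In the IP they took 0.0803% ± 0.0256 in resting and 0.324% ± 0.0873 in proliferating cells. On the TMM scale the summed level was 1854 ± 184 CPM in resting input, 909 ± 183 CPM in resting IP, 3520.0 ± 234 CPM in proliferating input and 3772 ± 1009 CPM in proliferating IP. Every resting library was below every proliferating library. How many of all features separate in this way was not counted, here or below. By mean CPM in the resting input, Mir301 stood 43rd, Mir130b 67th, Mir301b 102nd and Mir130a 196th among the features. In the proliferating input Mir130b stood 40th, Mir301 44th, Mir301b 84th and Mir130a 281st. Mir130b and Mir301 thus stood in opposite order in the 2 states, and Mir301b and Mir130a kept their places below them.

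**Figure D1:**
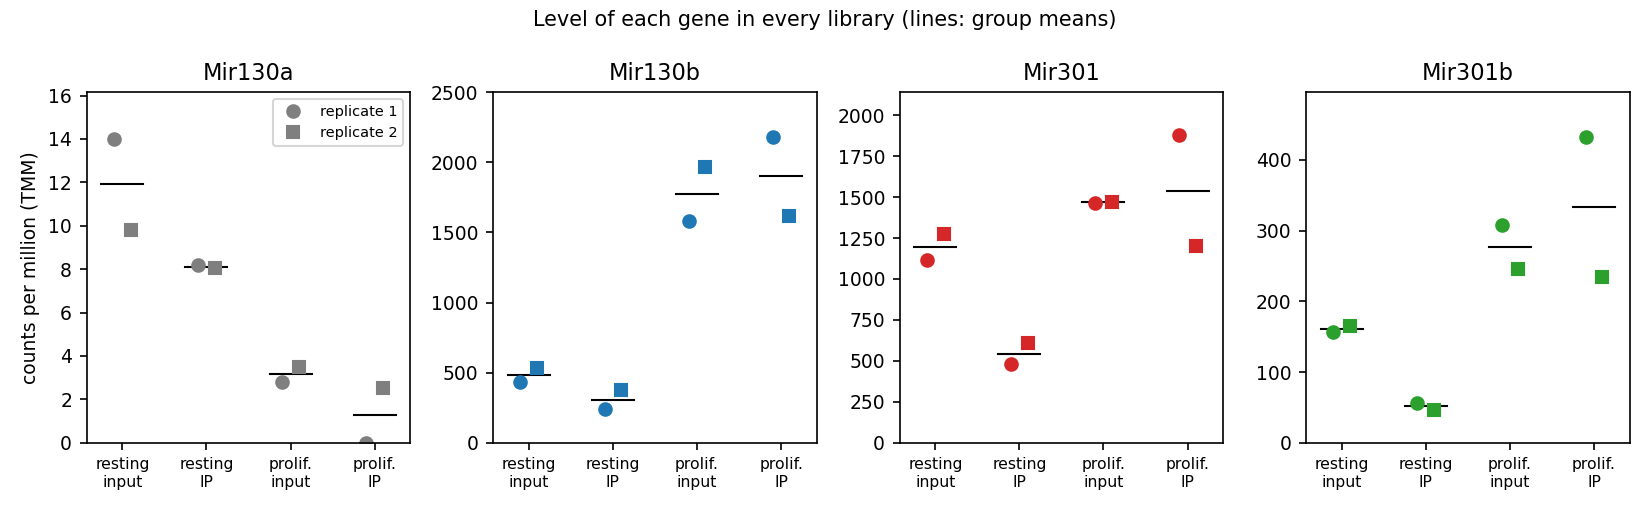
Level of Mir130a, Mir130b, Mir301 and Mir301b in each of the 8 libraries, in CPM with TMM factors on linear axes that differ between panels; circles are replicate 1, squares replicate 2 and lines the means of 2 libraries. The resting libraries of Mir130b all lie below its proliferating libraries, while for Mir301 a resting input of 1277 CPM lies above a proliferating IP of 1202 CPM.

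Mir130b was lower in resting cells both in input and in IP. Its input level was 436.6 and 532.8 CPM at rest (156 and 217 counts) against 1583 and 1964 CPM in proliferation (561 and 560 counts). Its IP level was 237 and 375 CPM at rest (318 and 280 counts) against 2177 and 1620.4 CPM in proliferation (1488 and 1911 counts). In input and in IP alike, both proliferating libraries were above both resting libraries, a separation whose share over all features was not counted.

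Mir301, the most abundant member at rest, had input levels of 1117 and 1277 CPM in resting cells (399 and 520 counts) and of 1462 and 1473 CPM in proliferating cells (518 and 420 counts). Its IP levels were 478 and 609 CPM in resting cells (641 and 455 counts) and 1877 and 1202 CPM in proliferating cells (1283 and 1417 counts). The resting IPs were the lowest libraries for this gene, and the other 6 libraries ran from 1117 to 1877 CPM.

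Mir301b was the weaker product of the chromosome 16 pair. In input it had 157 and 165 CPM at rest (56 and 67 counts) against 308 and 245 CPM in proliferation (109 and 70 counts). In IP it had 56.0 and 46.9 CPM at rest (75 and 35 counts) against 432 and 234 CPM in proliferation (295 and 276 counts). Its resting and proliferating libraries did not overlap, and the resting IPs were again the lowest. The share of all features separated like this was not counted, and the input difference did not pass its test (edgeR adjusted p = 0.11).

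Mir130a was close to the limit of detection. At rest it had 5 and 4 counts with input RNA and 11 and 6 with IP RNA. In proliferation it had 1 and 1 counts with input RNA and 0 and 3 with IP RNA, for a total of 31 over the 8 libraries. In the library with the count of 0, a count of 3 would be 3.77 counts per 1e6. The exact 2-sided 95% interval of the 0 reaches 4.64e-04% of that library's counts. The ratio of resting to proliferating was 3.76 in the input (95% exact counting interval 0.779 to 35.8) and 5.06 in the IP (1.46 to 26.9). The ratio of IP to input was 0.692 in resting (0.292 to 1.76) and 0.515 in proliferating cells (0.0590 to 6.17). These intervals cover counting error only. The interval of the input ratio of resting to proliferating includes no difference, while that of the IP lies above 1.

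The comparison of resting with proliferating input shows how the genes differ between the states before AGO2 is selected. Mir130b was 3.65-fold lower in resting cells (log2 fold change -1.87, SE 0.33), with a Benjamini-Hochberg adjusted p = 1.0e-05 in edgeR's quasi-likelihood test. Mir301 was at a log2 fold change of -0.29 (95% interval -0.92 to 0.34, edgeR adjusted p = 0.44), and Mir301b at -0.78 (95% interval -1.64 to 0.07, edgeR adjusted p = 0.11). Neither passed the threshold of 0.05, and these intervals do not show that they were equal between the states. So 1 of the 3 tested genes fell, 0 rose and 2 did not pass, at a median of -0.78, beside 49.3% of all 219 features that passed in either direction, 23.3% higher and 26% lower. The median over all features was -0.04. Calls over all features split into 51 higher and 57 lower, but into 37 and 75 with library totals and 59 and 39 with upper-quartile factors. Upper-quartile factors moved the median of all features to 0.31 and put Mir301 at 0.08. When only the 4 input libraries were fitted, Mir301 (-0.48, edgeR adjusted p = 0.018) and Mir301b (-0.97, edgeR adjusted p = 0.033) passed as well. Over all 17 alternatives, this one included, Mir301b ranged from -1.13 to -0.41 and passed in 2. Mir301 ranged from -0.64 to 0.08 and passed in 1.

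In the AGO2 IP all 3 tested genes were lower in resting cells. Mir130b was 6.22-fold lower, at a log2 fold change of -2.64 (SE 0.33, edgeR adjusted p = 1.2e-08). Mir301b was 6.40-fold lower, at -2.68 (SE 0.43, edgeR adjusted p = 1.5e-06), and Mir301 2.83-fold lower, at -1.50 (SE 0.32, edgeR adjusted p = 9.3e-05). Of all features 52.1% passed in this comparison and the background was 23.7% higher and 28.3% lower, beside which 3 of 3 genes were lower. The median was -2.64 for the 3 genes and -0.21 for all 219 features. Calls over all features split into 52 higher and 62 lower, and into 75 and 38 with upper-quartile factors, which moved the median of all features to 0.45. With those factors the 3 genes were still lower, Mir130b by 2.0, Mir301b by 2.07 and Mir301 by 0.87 on the log2 scale (edgeR adjusted p = 0.038 for Mir301). The input and the IP comparison use different libraries, and the comparisons of IP with input further on reuse all of them. In bulk RNA fewer cells of a type and less RNA per cell cannot be told apart.

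Markers of other cell types moved with cell state too. In the input, 5 of the 12 tested markers rose in resting cells, 2 fell and 5 did not pass. In the IP 8 rose, 1 fell and 3 did not pass. Over all features, 23.3% were higher and 26% lower in resting input, and 23.7% and 28.3% in resting IP. Mir223, the myeloid marker, was higher in resting cells by 3.18 in input and 4.59 in IP on the log2 scale, while Mir126a, found in endothelial cells and megakaryocytes, was lower, at -1.41 and -3.74. The part of these cells in the levels of the miR-130 and miR-301 genes was not tested. Without Mir223 the other markers held 0.175% to 0.176% of the resting inputs and 0.146% to 0.174% of the proliferating inputs, and 0.249% to 0.269% of resting against 0.143% to 0.235% of proliferating IP libraries. The epithelial markers among them held 0.197% to 0.209% of resting and 0.0380% to 0.0441% of proliferating IP libraries. In the inputs they held 0.109% to 0.129% at rest and 0.0586% to 0.0759% in proliferation. Mir126a, also in this sum, went the other way, with 0.0173% and 0.0253% of the resting and 0.0626% and 0.0820% of the proliferating inputs.

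**Figure D2:**
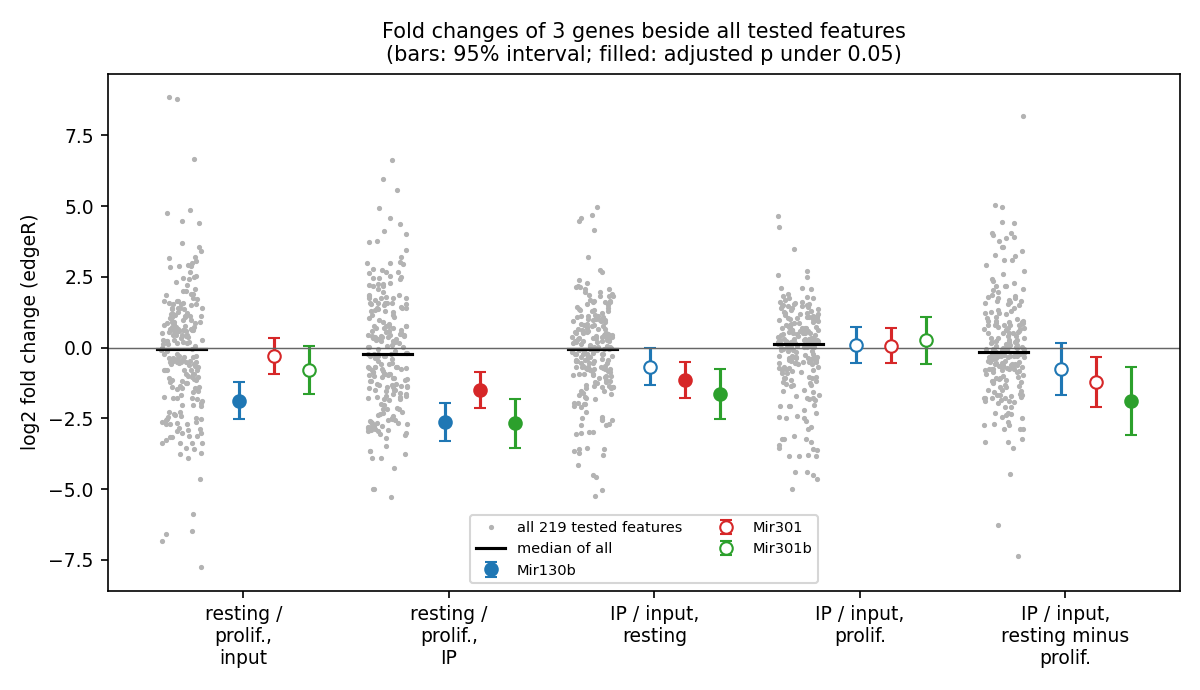
Log2 fold changes (vertical axis) of Mir130b, Mir301 and Mir301b in 5 comparisons, with 95% intervals that are not adjusted for the number of features; filled points passed an adjusted p under 0.05, grey dots are all 219 tested features and black lines their medians. In the IP of resting against proliferating cells, 11.4% of all features lie lower than Mir301b, 12.8% lower than Mir130b and 26.0% lower than Mir301. The genes lie close to the median for IP against input in proliferating cells.

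The comparison of IP with input asks how far each miRNA is represented with AGO2 relative to its level in the cell. In resting cells Mir301b was 3.10-fold lower in the IP than in the input, at a log2 fold change of -1.63 (SE 0.44, edgeR adjusted p = 0.0031). Mir301 was 2.20-fold lower, at -1.14 (SE 0.31, edgeR adjusted p = 0.0044). Mir130b was at -0.67 (95% interval -1.32 to -0.01, edgeR adjusted p = 0.11) and did not pass over all features. Both resting IP libraries lay below both resting inputs for each of the 3 genes. That is a description only, since the share of all features separated in this way was not counted. Of the 3 tested genes 2 fell, 0 rose and 1 did not pass, at a median of -1.14, beside 28.8% of all features that passed, 13.2% higher and 15.5% lower. The median over all features was -0.05. Calls over all features split into 29 higher and 34 lower, and into 33 and 23 with upper-quartile factors. Of the 12 tested markers of other cell types, 4 rose in the resting IP, 0 fell and 8 did not pass, and their part in the result was not tested. The calls of Mir301b and Mir301 held with library totals, upper-quartile and RLE factors. That of Mir301 was lost without resting input replicate 1 (edgeR adjusted p = 0.067) or 2 (0.13) and without proliferating input replicate 1 (0.059) or 2 (0.088), and Mir130b passed without resting IP replicate 2 (-1.27, edgeR adjusted p = 0.0030).

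In proliferating cells none of the 3 genes passed between IP and input (edgeR, unadjusted p from 0.53 to 0.83). Mir130b was at a log2 fold change of 0.10 (95% interval -0.54 to 0.73, edgeR adjusted p = 0.84), Mir301 at 0.07 (-0.56 to 0.69, edgeR adjusted p = 0.90) and Mir301b at 0.26 (-0.56 to 1.08, edgeR adjusted p = 0.67). Each interval holds the median of all features, 0.11, and the IP levels of replicates 1 and 2 lay on either side of at least 1 input library for all 3 genes. Of all features 26.9% passed here, 13.2% higher and 13.7% lower, beside 0 of 3 genes. Calls over all features split into 29 higher and 30 lower, and into 16 and 60 with library totals, which moved the median of all features to -0.50 and the 3 genes to -0.51, -0.54 and -0.34 in the order given. Relative to that median the genes stayed near 0 in both scalings.

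The difference of the IP against input ratio between the states was tested as an interaction. It was -1.89 on the log2 scale for Mir301b (SE 0.59, edgeR adjusted p = 0.022), which is a 3.72-fold lower ratio in resting cells. The value was -1.21 for Mir301 (SE 0.44, edgeR adjusted p = 0.051) and -0.77 for Mir130b (SE 0.45, edgeR adjusted p = 0.25), and neither passed. So 1 of 3 genes was lower, beside 17.4% of all features that passed, 7.76% higher (17) and 9.59% lower (21). The median over all features was -0.17, and the split was 20 and 7 with library totals and 15 and 7 with upper-quartile factors. The Mir301b call was lost in 10 of 16 alternatives, among them those with library totals, upper-quartile and RLE factors. Without either of the resting input, either of the proliferating input or the first of the proliferating IP libraries its value lay between -1.76 and -1.22 (edgeR adjusted p from 0.056 to 0.29). Over the 16 alternatives Mir301 ranged from -1.68 to -0.65 and passed in 2. Mir130b ranged from -1.42 to -0.27 and passed in 1. The values of -1.68 and -1.42 were those without resting IP replicate 2.

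Ratios between the genes within a library do not depend on scaling, and they show how the family's make-up differed between the states. For each count of Mir130b, resting cells had 2.56 and 2.40 counts of Mir301 with input RNA and 2.02 and 1.63 with IP RNA. Proliferating cells had 0.923 and 0.75 with input RNA and 0.862 and 0.741 with IP RNA. All 4 resting libraries were above 1 and all 4 proliferating libraries below it. With counting error alone, the lowest bound among the resting libraries was 1.40 and the highest bound among the proliferating libraries 1.04 (95% exact intervals). The ratio was a mean of 2.48 ± 0.114 in resting input and 0.837 ± 0.123 in proliferating input, a gap wider than the spread between replicates. The ratio was not tested, and it draws on the same counts as the fold changes above. How many other pairs of features separate between the states was not counted.

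As shares of the family's counts, Mir301 gave 64.6% ± 0.294 of the resting input and 41.8% ± 2.55 of the proliferating input. Mir130b gave 26.1% ± 1.08 and 50.2% ± 4.31 there. In the IP, Mir301 gave 60% ± 1.91 in resting and 40.6% ± 1.81 in proliferating cells, and Mir130b 33.3% ± 4.0 and 50.8% ± 3.15. Mir301b stayed between 4.51% and 9.62% in all 8 libraries, and Mir130a took 1.05% or less.

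The ratio between the neighbours Mir301b and Mir130b ranged from 0.125 to 0.359. For each count of Mir130b, resting cells had 0.359 and 0.309 counts of Mir301b with input RNA and 0.236 and 0.125 with IP RNA. Proliferating cells had 0.194 and 0.125 with input RNA and 0.198 and 0.144 with IP RNA. The resting inputs were above the other 6 libraries, which overlapped each other. The exact counting intervals of the resting inputs, 0.260 to 0.490 and 0.231 to 0.408, did not overlap those of the proliferating IPs, 0.174 to 0.225 and 0.127 to 0.164, but both overlapped that of resting IP replicate 1, 0.181 to 0.304, and the second overlapped that of proliferating input replicate 1, 0.157 to 0.239. The feature does not tell whether 1 or both arms carry this difference.

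**Figure D3:**
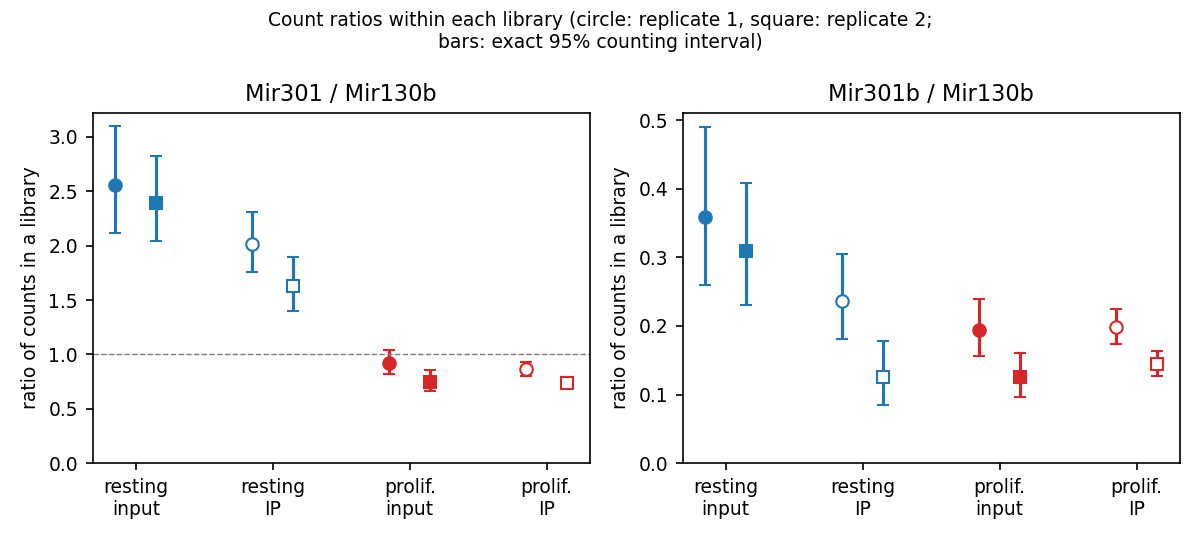
Ratio of counts of Mir301 to Mir130b (left) and of Mir301b to Mir130b (right) in each library (vertical axes, linear from 0), with exact 95% counting intervals; blue marks resting and red proliferating cells, filled symbols input and open symbols IP, circles replicate 1 and squares replicate 2. The left ratio runs from 1.63 to 2.56 in resting and from 0.741 to 0.923 in proliferating libraries, on either side of the dashed line at 1.

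The levels of the genes were also compared across the 8 libraries, as Pearson correlations of log2 CPM. They are a description only, since the libraries fall into 4 conditions and those of a state share a table. Mir301 and Mir301b, which lie on different chromosomes, were closest to each other among all tested features (r = 0.96, 8 libraries). The Mir301b hairpin holds a stretch close in sequence to the miR-301a 3p arm. How reads matching both genes were counted is not given, and their part in this correlation was not tested. Mir130b correlated at 0.89 with its neighbour Mir301b and at 0.86 with Mir301. Neither was among the 3 features most like Mir130b, which were Mir298 (r = 0.98), Mir1306 (0.97) and Mir132 (0.96), the last a miRNA induced by CREB. Next to Mir301b, Mir301 was most like Mir1306 (0.92) and Mir181b-1 (0.87), and Mir301b was most like Mir1306 (0.92) and Mir363 (0.91) after Mir301. Mir1306 lies on chromosome 16 as Mir130b and Mir301b do, but not within 10 kb of them. In the IP, Mir1306 was at -2.75, Mir298 at -3.03, Mir132 at -5.26 and Mir363 at -2.55 on the log2 scale for resting against proliferating cells, each with an edgeR adjusted p of 8.2e-06 or less. Mir181b-1 was at -2.91 there with a wider error (SE 1.03, edgeR adjusted p = 0.017).

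The family of miR-148 and miR-152 was set beside these genes, because its seed has 6 letters, AGUGCA, in common with theirs, shifted by a base. Mir148a is known to impair B cell tolerance in mice, and Mir148b and Mir152 are known to restrain dendritic cells. Their 3p arms are shown with bases 2 to 8 in capitals.
mmu-miR-148a-3p: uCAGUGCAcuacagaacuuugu
mmu-miR-148b-3p: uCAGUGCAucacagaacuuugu
mmu-miR-152-3p: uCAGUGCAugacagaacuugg
Resting cells had 375 and 398 CPM of Mir148a in input and 461 and 444 CPM in IP, and proliferating cells 1882 and 1266 CPM in input and 1159 and 2057 CPM in IP. Its resting libraries all lay below its proliferating ones, as for Mir130b. The log2 fold change of resting against proliferating cells was -2.03 in the input (edgeR adjusted p = 4.9e-06) and -1.83 in the IP (edgeR adjusted p = 1.1e-05). Mir148b was lower in resting input (-0.92, edgeR adjusted p = 0.015) and at -0.11 in the IP (edgeR adjusted p = 0.79). Mir152 passed in neither, with 6 to 139 counts in a library.

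For IP against input in resting cells, Mir148b had 2775 and 1578 CPM in the IP and 979 and 1019 CPM in the input. It was 2.18-fold higher in the IP, a log2 change of 1.12 with an SE of 0.31 (edgeR adjusted p = 0.0045). Mir148a was at 0.23 (95% interval -0.44 to 0.89) and Mir152 at 0.43 (-0.76 to 1.61). So 1 of 3 genes of the miR-148 and miR-152 family rose and 0 fell, where 2 of 3 of the miR-130 and miR-301 genes fell and 0 rose, beside 13.2% of all features higher and 15.5% lower. With 3 genes in each list, these counts are a description. The difference between the families was not tested as such. In proliferating cells no gene of either family passed.

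**Figure D4:**
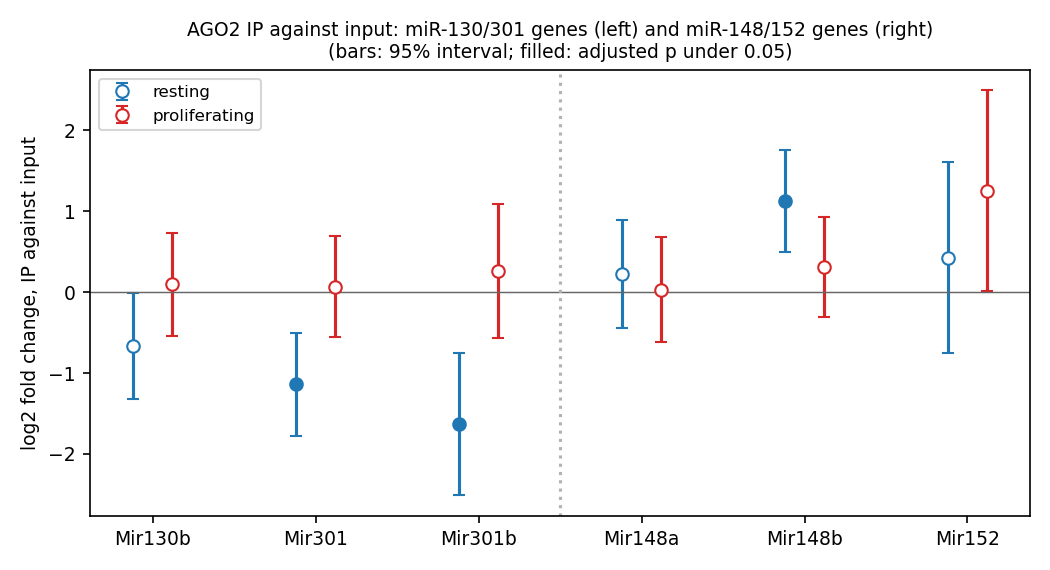
Log2 fold change of IP against input (vertical axis) for 3 miR-130 and miR-301 genes and 3 miR-148 and miR-152 genes in resting (blue) and proliferating (red) cells, with 95% intervals that are not adjusted for the number of features; filled points passed an adjusted p under 0.05. In resting cells the points run from -1.63 for Mir301b to 1.12 for Mir148b, with the miR-130 and miR-301 genes below 0 and the miR-148 and miR-152 genes above it.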

How the data were processed

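The labels' protocols describe single-end small RNA sequencing of 1 pool of libraries (QIAseq miRNA kit). Alignment to mm10 used STAR 2.7.9a together with SAMtools 1.15, according to the submitters' processing notes. The deposited values are raw counts per Ensembl miRNA gene from deduplicated alignments, per the file headers. How reads were counted, with what strand setting and with what treatment of several matches, is not given. Features were named by exact chromosome, start and end in RefSeq (GRCm38.p6), which named 1179 of 2202, and unnamed features held 1.06% of counts. Groups came from titles.

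All 8 libraries entered 1 quasi-likelihood model with 4 groups in edgeR 4.0.16 (R 4.3.3), after filterByExpr (minimum count 10) and TMM (factors 0.797 to 1.34). P-values were 2-sided and adjusted by Benjamini-Hochberg over 219 features, with a threshold of 0.05. SE is the log2 fold change over the square root of F, and 95% intervals, not adjusted, use 4 residual and 36.6 prior degrees of freedom. Replicates differed by more than sampling noise, with a chi-square of at least 8.56 for each degree of freedom. The procedure was tested on simulated counts.

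By a rule, the text names the 4 members, genes of their seed, the miR-148 and miR-152 genes, the 3 features most correlated with each tested member, and cell type markers. Members and lists were chosen with earlier results of these data known. Alternatives were other scalings and filters, DESeq2 1.42.0, limma 3.58.1 (voom), a replicate block, fits to 4 libraries, and leaving out each library.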

Additional observations from a re-analysis of the deposited data

Results flagged for a closer look

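The ratio of IP to input of Mir301b differed between the cell states, with a difference of -1.89 on the log2 scale for resting minus proliferating cells (SE 0.59, edgeR adjusted p = 0.022). It is listed because the difference itself passed its test, but the call was lost in 10 of 16 alternatives, and leaving out proliferating input replicate 2 brought the value to -1.22 (edgeR adjusted p = 0.29). The mean level was 51.4 CPM in resting IP against 160.6 in resting input, and 333 CPM in proliferating IP against 276 in proliferating input. Counts behind it ran from 35 to 295 in a library.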

How the results depend on the processing

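Over 252 repeats of the 15 member results, 213 kept their direction and their side of the threshold, and 5 of the 7 calls did so under every alternative run. The exceptions were Mir301 in IP against input of resting cells (range over alternatives -1.57 to -0.89, edgeR or other adjusted p up to 0.13) and the Mir301b difference between states (-2.16 to -1.22, adjusted p up to 0.29), which was -1.54 with library totals, -1.66 with upper-quartile factors, -1.85 with RLE factors, -1.69 without a filter and -1.77 with limma-voom. For IP against input in proliferating cells the direction of uncalled values turned: Mir130b was at -0.51 with library totals, -0.019 with upper-quartile factors, -0.0086 without a filter and -0.15 to 0.25 with a library left out, Mir301 at -0.54, -0.037, -0.038 and -0.25 to 0.32 in the same order, and Mir301b at -0.34 with library totals and -0.20 to 0.61 with a library left out. Mir301 in the input comparison was at 0.081 with upper-quartile factors. The number of features called in IP against input of proliferating cells was 59, and ranged from 30 to 63 with a library left out (33 and 30 without proliferating input replicate 1 or 2, 37 without proliferating IP replicate 2). The number called for the difference between states, 38, was 22 with upper-quartile factors, 25 with RLE factors and 11 to 46 with a library left out (25 without resting input replicate 1, 11 and 13 without proliferating input replicate 1 or 2, and then 0 lower). The cause was not tested. Fits without a library tested 225 to 253 features and assume that a lone library varies like the others. A block for the replicate number gave 40 calls for that difference, 60 and 62 for IP against input in proliferating and resting cells, and 100 and 109 for the states in input and IP, and changed no member's call. Over all tested features, libraries of the same number did not deviate together in the groups compared directly (correlations from -0.09 to 0.18). The correlation was -0.12 between resting input and proliferating IP. Single genes differed from this: at rest Mir130b and Mir301 were higher in replicate 2 in both input and IP, while Mir301b went opposite ways. In proliferation Mir301b was lower in replicate 2 in both, while Mir130b and Mir301 went opposite ways. Depth limits Mir130a, which had at most 11 counts in a library.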
